A study of Mus musculus with 4 samples.

Results

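The mitochondrial carrier family and the protein import machinery were followed in midbrain dopamine neurons as 67 genes: 44 Slc25 carriers, 15 TIM genes of the inner membrane and intermembrane space, and 8 TOM genes of the outer membrane. They were all the genes whose probe sets carry a single symbol beginning with Slc25a, Timm or Tomm followed by a number, among 18193 genes on the array, and the rule itself uses no measured value. Each gene was read from its brightest probe set over the 4 arrays, and the 67 genes have 142 probe sets in all. Tomm5 and Tomm6 were left out because their probe sets are annotated to a second gene as well.

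RNA was measured on Affymetrix arrays in 2 fractions of midbrain from adult mice of 6 to 12 weeks, of both sexes, with 5 mice in each pool. All mice carried the same transgene, an eGFP-tagged ribosomal protein (eGFP/RPL10A) inserted into a BAC at the Slc6a3 gene (line JD1640, a single line made in FVB oocytes and bred to C57BL6/j). TRAP RNA (replicates 2 and 4) was pulled down with the tagged ribosomes after cycloheximide had stalled translation, so it represents cells that use the Slc6a3 (dopamine transporter) promoter carried by the BAC. Input RNA (replicates 1 and 2) represents the whole midbrain. The sample labels call it unbound or total RNA and the methods call it input. No mice without the transgene were compared. Values are arbitrary expression units, taken back from the authors' log2 values, and 50 units on both arrays of at least 1 fraction was required to call a gene above background.

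Nearly all mitochondrial proteins are made in the cytosol and have to cross the mitochondrial membranes. The TOM complex is the entry pore of the outer membrane. TIM23 then passes proteins with a cleavable presequence into the matrix, while small TIM chaperones carry hydrophobic proteins across the intermembrane space to TIM22, which inserts them into the inner membrane. The Slc25 carriers are the best known cargo of TIM22, and they exchange nucleotides, phosphate, carboxylic acids, amino acids and cofactors between the cytosol and the matrix. Dopamine neurons have long axons and pacemaking activity, and their mitochondria have been studied closely in Parkinson's disease.

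Slc6a3 was 37882 and 41149 units in TRAP and 4856 and 5824 in input, and all 8 dopamine neuron markers were higher in TRAP. Summed levels of 8 astrocyte markers were 9840 and 6534 units in TRAP 2 and TRAP 4 and 24375 and 31198 in input 1 and input 2, with all 8 genes lower on average in TRAP. The sums for 7 oligodendrocyte markers were 78126 and 34726 in TRAP and 89696 and 95305 in input, and for 7 microglial markers they were 999 and 464 in TRAP and 1543 and 3187 in input. Of the 7 microglial markers 6 were lower on average in TRAP, and Aif1 was not. Only 3 were above background (Cx3cr1, Csf1r and C1qb), and the fractions of C1qb overlapped. For 3 GABA neuron markers the sums were 5960 and 2839 in TRAP and 12865 and 5968 in input, and for 6 endothelial and mural markers 550 and 132 in TRAP and 1359 and 1386 in input. Of the 6 endothelial and mural markers, 4 were above background. TRAP 2 thus held more signal of glial markers than TRAP 4, and no marker list was absent from TRAP. The part of these other cells in the results was not tested. In RNA pooled from many cells, fewer cells of a type and less RNA per cell cannot be told apart.

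Of the 67 genes, 54 were above background: 33 carriers, 14 TIM genes and 7 TOM genes. Of these, 12 (22.2%) were higher in TRAP at an adjusted p under 0.05 from limma, against 18.7% of the 10014 genes above background. No member was lower in TRAP at this threshold, against 6.87% of all genes. The share called higher at the adjusted threshold was therefore close to that of genes in general. At an unadjusted p under 0.05 limma gave 22 members higher and 1 lower, against 2788 and 1083 of the 10014 genes. Both TRAP arrays lay above both input arrays for 36 members (66.7%), against 52.3% of all genes, and 43 members (79.6%) had a positive difference, against 65.8%. The median log2 difference was 0.76 over the members and 0.44 over all genes.

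The families are described by their counts and medians, and differences between them were not tested. Among TIM genes 6 of 14 (42.9%) were called higher, against 18.7% of all genes, and the median log2 difference was 1.38. Among TOM genes 1 of 7 was called, with a median of 1.12, and among carriers 5 of 33 (15.2%) were called, with a median of 0.54. When the arrays were rescaled, the TIM median went to 0.98 after quantile normalization and 0.97 after centring each array on bright probe sets. The carrier median went to 0.12 and 0.13. Quantile normalization gave 2 TIM genes, 4 carriers and 1 TOM gene higher, beside 12.2% of all genes. Centring gave 8 TIM genes, 8 carriers and 1 TOM gene higher, beside 21% of all genes. The median of all genes itself moved by -0.39 and -0.43 under these scalings.

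**Figure D1:**
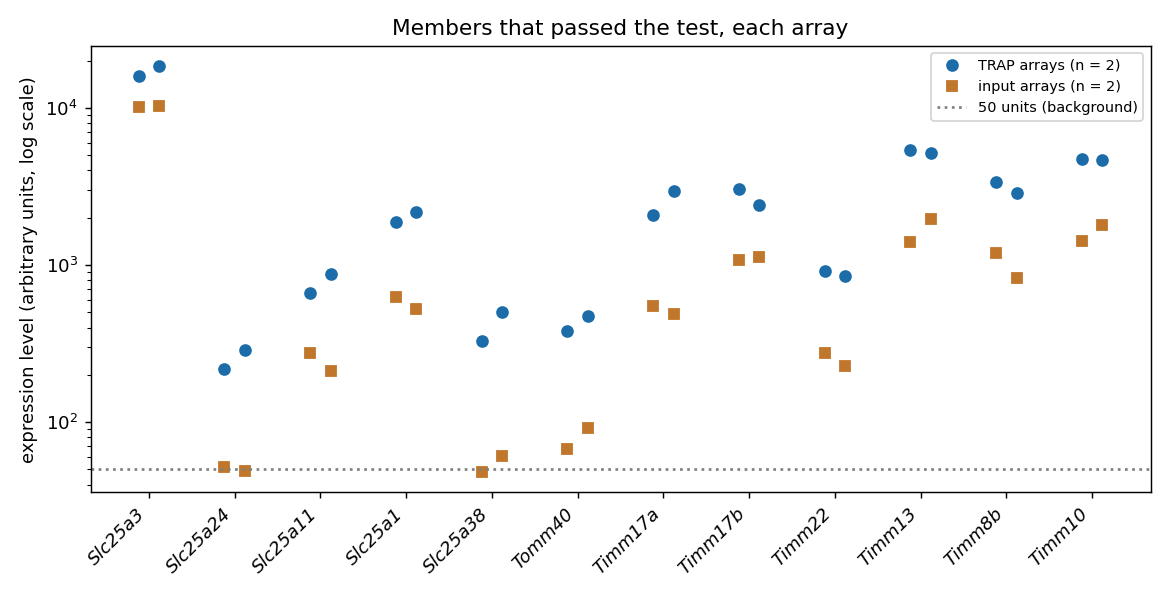
Expression units (log axis) of the 12 members called higher in TRAP, with a point for each of the 2 TRAP and 2 input arrays. For all 12 genes both TRAP points lie above both input points, with a dotted line at the background of 50 units, from a 1.69-fold difference for Slc25a3 to 7.47-fold for Slc25a38.

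The TIM22 pathway held the most calls of the 12 roles into which the genes were sorted. There 4 of 8 genes (50%) were higher, against 18.7% of all genes. All 8 differences were positive on the brightest probe sets, against 65.8% of all genes. Timm9 also had a dimmer probe set called lower. Timm10b turned slightly negative after quantile normalization (-0.052) and after centring (-0.080). Timm22, the pore-forming subunit of the carrier translocase, was at 917 and 854 units in TRAP and 274 and 227 in input. Its difference of 1.83 on the log2 scale (SE 0.13, adjusted p = 0.00980) was the only one under an adjusted p of 0.01 among the 54 members above background. The TRAP arrays agreed closely and both were more than 3 times the input arrays.

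The small chaperones work in the intermembrane space as Timm9 with Timm10 and as Timm8 with Timm13. Timm10 was 4755 and 4662 units in TRAP and 1427 and 1797 in input (log2 difference 1.56, SE 0.16, adjusted p = 0.0172). Timm13 was 5369 and 5138 in TRAP and 1402 and 1956 in input (1.67, SE 0.23, adjusted p = 0.0298). Timm8b was 3361 and 2853 in TRAP and 1196 and 830 in input (1.64, SE 0.27, adjusted p = 0.0419). All 3 chaperone genes were thus about 3-fold higher in TRAP (2.94, 3.17 and 3.11), with no overlap between the fractions. After quantile normalization their log2 differences were 1.03, 1.14 and 1.13, and none passed (limma adjusted p = 0.0583, 0.0789 and 0.0770). Timm9, the partner of Timm10, and Timm8a1, the other Timm8 gene above background, did not pass. Timm9 was 287 and 297 in TRAP and 143 and 85.7 in input (log2 difference 1.40, adjusted p = 0.0829). Timm8a1 was 2742 and 2064 in TRAP and 1698 and 587 in input (1.25, adjusted p = 0.264). For both, the TRAP arrays were above the input arrays but the input arrays lay far apart. Timm29, a TIM22 subunit, gave 1.38 (adjusted p = 0.0509) and Timm10b gave 0.33 (adjusted p = 0.404).

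In TIM23, the translocase for presequence proteins, 2 of 6 genes (33.3%) were called higher, against 18.7% of all genes. Both encode the Tim17 subunit that builds the channel together with Tim23. Timm17a was 2087 and 2951 units in TRAP and 552 and 485 in input (log2 difference 2.26, SE 0.25, adjusted p = 0.0204). Timm17b was 3024 and 2419 in TRAP and 1069 and 1123 in input (1.30, SE 0.15, adjusted p = 0.0232). The fold was 4.80 for Timm17a and 2.47 for Timm17b. Timm23 itself was 5839 and 5462 in TRAP and 3423 and 2083 in input (1.08, adjusted p = 0.104). Timm50, the receptor of the complex, gave 1.37 (adjusted p = 0.107). Timm44, which anchors the import motor on the matrix side, went the other way without passing, at 745 and 683 in TRAP and 730 and 1374 in input (-0.49, adjusted p = 0.408), and its fractions overlapped.

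Tomm40, the channel of the outer membrane, was the TOM gene that passed. It was 382 and 473 units in TRAP and 67.7 and 91.8 in input, a log2 difference of 2.43 (SE 0.25, adjusted p = 0.0180) and a 5.40-fold difference. The receptors were less separated. Tomm20, the receptor for presequences, was 18105 and 19227 in TRAP and 12707 and 5525 in input (1.15, adjusted p = 0.204). Tomm70a, the receptor for carrier proteins, was 4524 and 5685 in TRAP and 2772 and 1766 in input (1.20, adjusted p = 0.0892). Tomm7, a small subunit of the complex, was 8333 and 6109 in TRAP and 3822 and 2808 in input (1.12, adjusted p = 0.0852). In each of these the TRAP arrays were above the input arrays, although the difference did not pass. Tomm22 gave 0.31 (adjusted p = 0.347), the cytosolic cochaperone Tomm34 gave 0.35 (adjusted p = 0.280), and Tomm40l, a relative of Tomm40, gave -0.14 (adjusted p = 0.747).

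Among the carriers, the 5 that passed belong to different roles. Slc25a3 brings phosphate into the matrix for ATP synthesis, and it was 16023 and 18394 units in TRAP and 10113 and 10235 in input. Its log2 difference of 0.75 (SE 0.09, adjusted p = 0.0252) was the smallest of those called, and the input arrays were almost equal. The ADP/ATP exchangers that work beside it were not called. Slc25a4 was 26716 and 26077 in TRAP and 19159 and 12614 in input (0.76, adjusted p = 0.136), nearly the same difference as for Slc25a3 with a wider input spread. Slc25a5 was 7525 and 8340 in TRAP and 4195 and 2801 in input (1.21, adjusted p = 0.0749).

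Slc25a1 exports citrate, a source of cytosolic acetyl-CoA. It was 1869 and 2160 units in TRAP and 626 and 529 in input (log2 difference 1.80, SE 0.15, adjusted p = 0.0122), 3.49-fold higher in TRAP. Slc25a10, the dicarboxylate carrier, was 215 and 219 in TRAP and 132 and 264 in input (0.22, adjusted p = 0.718). For Slc25a10 the input arrays lay on either side of the TRAP arrays, and the direction followed the input array kept. Without input 1 it was called lower in TRAP (-0.28, adjusted p = 0.0437) and without input 2 higher (0.71, adjusted p = 0.0159).

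The malate-aspartate shuttle moves the reducing power of cytosolic NADH into the matrix with an oxoglutarate/malate carrier, Slc25a11, and an aspartate/glutamate carrier, Slc25a12 or Slc25a13. Slc25a11 was 668 and 882 units in TRAP and 275 and 211 in input (log2 difference 1.67, SE 0.26, adjusted p = 0.0374), 3.19-fold higher in TRAP. Slc25a12 was 2354 and 2562 in TRAP and 1512 and 1026 in input (0.98, adjusted p = 0.0852), with the fractions apart, and Slc25a13 was not above background. The glutamate carrier Slc25a22 was 892 and 1201 in TRAP and 400 and 502 in input (1.21, adjusted p = 0.0627). The other glutamate carrier, Slc25a18, was 259 and 78.1 in TRAP and 370 and 696 in input (-1.84, SE 0.91, adjusted p = 0.210). The order of the 4 arrays for Slc25a18 (TRAP 4, TRAP 2, input 1, input 2) is that of the summed markers of astrocytes, oligodendrocytes, microglia and endothelial and mural cells alike, and the part of these cells in it was not tested.

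Slc25a38, the mitochondrial glycine carrier needed for the first step of heme synthesis, had the largest difference of the 54 genes. It was 328 and 502 units in TRAP and 48.1 and 61.3 in input (log2 difference 2.90, SE 0.33, adjusted p = 0.0217). The input arrays lay at the background level, 1 of them just under 50 units, and against a floor of 50 units the fold was 7.33. Other amino acid and carnitine carriers did not pass. Slc25a20, the carnitine/acylcarnitine carrier, was 1923 and 1019 in TRAP and 1204 and 1172 in input (0.24, adjusted p = 0.668). Slc25a44, which carries branched-chain amino acids, was 1180 and 1237 in TRAP and 511 and 1077 in input (0.70, adjusted p = 0.331). Slc25a15, the ornithine carrier, was 906 and 561 in TRAP and 1076 and 819 in input (-0.40, adjusted p = 0.432). Of these only Slc25a44 had both TRAP arrays above the input arrays.

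The ATP-Mg/phosphate carriers are gated by calcium and set the adenine nucleotide content of the matrix. Slc25a24 was 217 and 286 units in TRAP and 52.0 and 48.9 in input (log2 difference 2.30, SE 0.19, adjusted p = 0.0120), and its fold against a floor of 50 units was 4.89. Slc25a25 was 199 on both TRAP arrays and 139 and 167 in input (0.38, adjusted p = 0.110). Slc25a23 was 719 and 415 in TRAP and 698 and 1014 in input (-0.62, adjusted p = 0.332), with overlapping fractions. The 3 carriers of this role thus had differences of 2.30, 0.38 and -0.62.

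None of the 9 cofactor, nucleotide and glutathione carriers above background was called, against 18.7% of all genes called higher and 6.87% lower. A positive difference was found for 8 of the 9 (88.9%), against 65.8% of all genes. Slc25a39, a glutathione carrier, was 16299 and 14129 units in TRAP and 9060 and 10661 in input (log2 difference 0.63, adjusted p = 0.0751). Slc25a51, the carrier of NAD+, was 3180 and 3895 in TRAP and 2315 and 2313 in input (0.61, adjusted p = 0.0714). Slc25a36, which carries pyrimidine nucleotides, was 6705 and 8199 in TRAP and 8089 and 7921 in input (-0.11, adjusted p = 0.536). The fractions lay apart for Slc25a39 and Slc25a51 and overlapped for Slc25a36. Slc25a16 was 1723 and 1663 in TRAP and 1080 and 223 in input (1.78, adjusted p = 0.266). Slc25a17, a carrier of the peroxisome and not of mitochondria, was 100 and 69.2 in TRAP and 24.1 and 10.5 in input, at least 1.67-fold higher in TRAP because both input arrays were under 50 units (adjusted p = 0.0852).

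Both iron carriers, the mitoferrins, had negative differences that did not pass. Slc25a37 (mitoferrin 1) was 131 and 137 units in TRAP and 246 and 153 in input (log2 difference -0.54, adjusted p = 0.270). Slc25a28 (mitoferrin 2) was 901 and 606 in TRAP and 888 and 650 in input (-0.04, adjusted p = 0.928). Slc25a37 had both TRAP arrays below the input arrays, and the 2 fractions of Slc25a28 overlapped. The uncoupling-protein relatives of the brain were not called either. Slc25a14 was 1405 and 1302 in TRAP and 1065 and 960 in input (0.42, adjusted p = 0.0617), and Slc25a27 was 180 and 226 in TRAP and 262 and 90.9 in input (0.38, adjusted p = 0.683).

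Among the remaining carriers, Slc25a46, an outer membrane protein linked to mitochondrial shape, was 4094 and 4343 units in TRAP and 3212 and 2759 in input (log2 difference 0.50, adjusted p = 0.0678). Slc25a53 was 223 and 429 in TRAP and 389 and 380 in input (-0.31, adjusted p = 0.584). Slc25a34 was 39.0 and 32.3 in TRAP and 100 and 173 in input (-1.89, SE 0.39, adjusted p = 0.0608). Its arrays were in the same order as those of Slc25a18. Both TRAP arrays of Slc25a34 were under 50 units, so the gene was at least 2.63-fold lower in TRAP, and it was the 1 member lower at an unadjusted p under 0.05. Slc25a18, Slc25a34 and Slc25a37 were the 3 of 54 members with both TRAP arrays below both input arrays, against 2363 of 10014 genes.

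**Figure D2:**
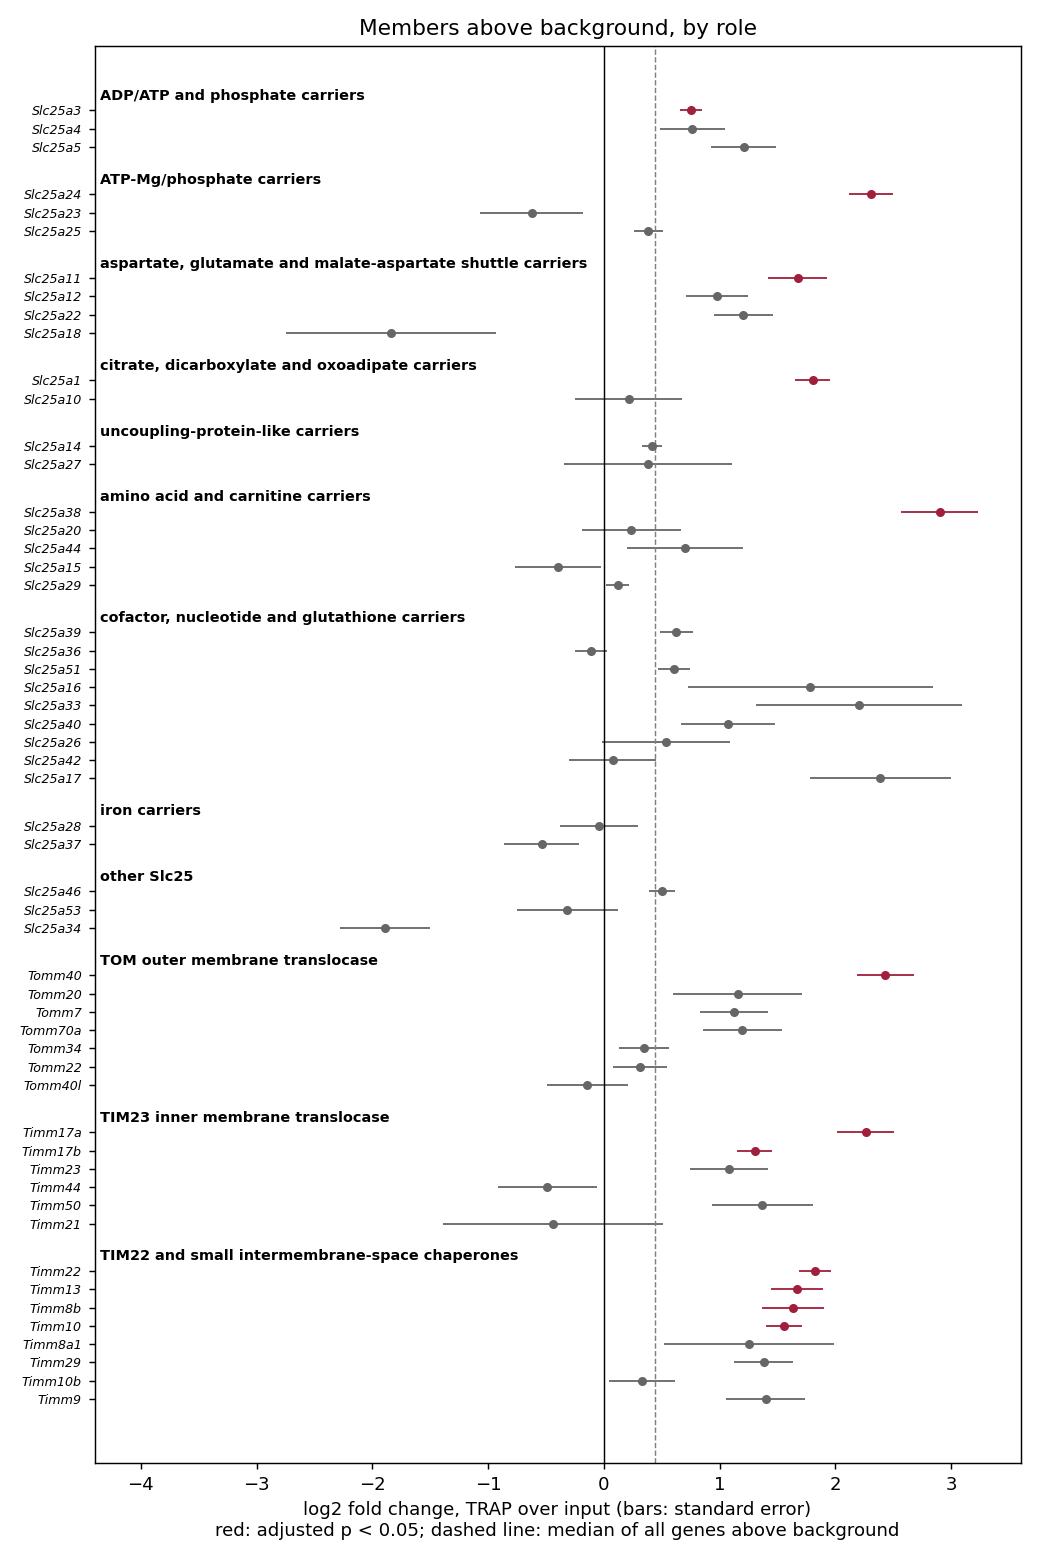
Log2 difference of TRAP over input, with its standard error, for the 54 members above background, grouped by role, with a dashed line at the median of all genes (0.44). Red points are the 12 genes with an adjusted p under 0.05, all to the right of the dashed line, and the 11 negative differences include none of them.

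The 13 members not above background were Slc25a2, Slc25a13, Slc25a30, Slc25a31, Slc25a32, Slc25a35, Slc25a41, Slc25a45, Slc25a47, Slc25a48, Slc25a54, Timm8a2 and Tomm20l. Their values give no level, and 5 of them have identical values within both fractions. They were not counted, although 8 of them have an adjusted p under 0.05.

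Whether a large difference passed went with how far the input arrays lay apart. There were 14 members at least 2-fold higher in TRAP that did not pass, and in all 14 the TRAP arrays were above the input arrays. Choosing by a 2-fold difference itself favours such a separation, which was not counted over all genes chosen this way. The median absolute log2 difference between the input arrays of the 14 was 0.81 (highest 2.27), against 0.30 (highest 0.53) in the 12 genes that passed. Slc25a33, a pyrimidine nucleotide carrier at 1903 and 1573 units in TRAP and 723 and 194 in input, is an example (log2 difference 2.21, SE 0.89, adjusted p = 0.156). Input 1 was the higher input array for 33 of the 54 members (61.1%), against 48.8% of all genes. With 2 arrays a fraction the test itself uses this spread, so the comparison is a description of the calls.

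**Figure D3:**
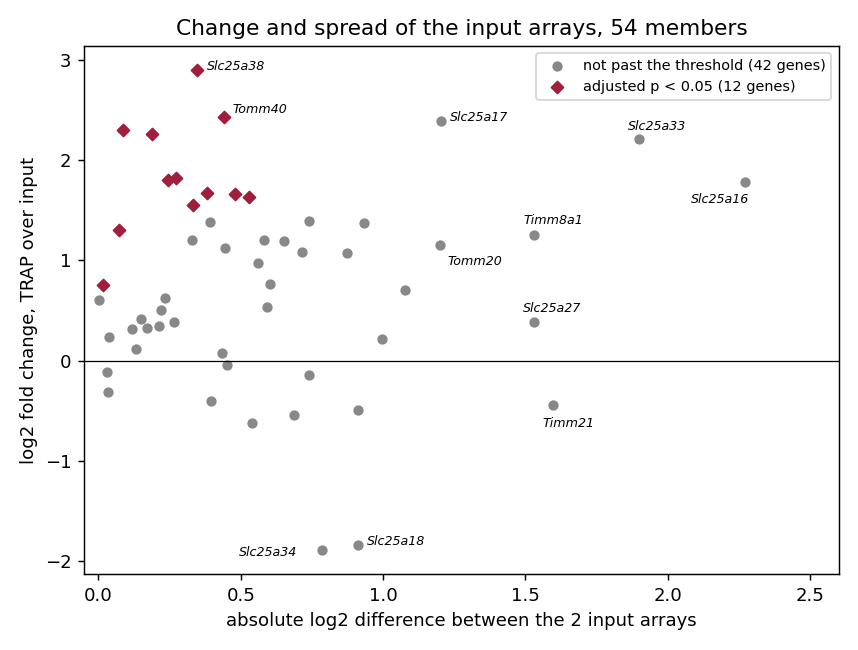
Log2 difference of TRAP over input against the absolute log2 difference between the 2 input arrays, a point for each of the 54 members. The 12 genes past the threshold lie at an input difference of 0.53 or less, and Slc25a33 and Slc25a16 lie high with the most divergent input arrays.

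The calls also depended on single arrays. Without TRAP 2 or without TRAP 4, 4 and 5 members were called higher (7.78% and 7.38% of all genes), and Slc25a24, Slc25a3 and Timm17b were the 3 of the 12 kept in both cases. Without input 1 or without input 2, 13 and 11 were called (15.3% and 13.9% of all genes), and Timm10, Timm13 and Timm22 were the 3 of the 12 kept in both. No gene of the 12 passed without each array in turn, and the highest adjusted p of any of them was 0.185, while all 12 differences stayed positive. Quantile normalization gave 7 members higher and 1 lower, and centring on bright probe sets gave 17 higher and 3 lower. Of the 12, the 5 lost after quantile normalization were Slc25a3, Timm8b, Timm10, Timm13 and Timm17b, while centring kept all 12. With values under 50 units raised to 50, limma called 0 members (unadjusted p under 0.05 for 23 higher and 1 lower, with no count over all genes). Over all genes the split of 1868 higher and 688 lower (73.1% higher) became 1224 and 1013 (54.7%) and 2104 and 2191 (49.0%).

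All probe sets of the same genes were also counted together, with the brightest ones, already reported above, among them. Of 102 member probe sets above background, 31 (30.4%) were called higher, against 18.8% of all probe sets above background, and 4 (3.92%) lower, against 9.13%. Of 23 genes with at least 2 such probe sets, 16 had all of them on the same side of 0 and 7 did not. All 8 probe sets of Slc25a5, all 4 of Slc25a4 and all 6 of Tomm20 were positive. Some of these probe sets have a suffix (_s_at or _x_at) that marks probes shared with other transcripts, so close relatives such as Slc25a4 and Slc25a5 may not be fully separated.

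Of 21 members whose brightest probe set was not called higher and that had another above background, 11 (52.4%) had a dimmer one called higher, against 660 of 3137 genes (21%), with the number of probe sets per gene not matched. They were Slc25a4, Slc25a5, Slc25a20, Slc25a25, Slc25a29, Slc25a39, Slc25a44, Slc25a53, Timm10b, Tomm20 and Tomm70a. Timm10b, a chaperone bound to TIM22, was the clearest case. Its brightest probe set was 570 and 379 units in TRAP and 393 and 349 in input, with overlapping fractions, while its 3 other probe sets gave log2 differences of 2.02, 2.45 and 2.62. The readings of Slc25a53 differed in sign, at -0.31 on the brightest probe set and 1.61 (SE 0.26, adjusted p = 0.0403) on the other, which was 332 and 453 in TRAP and 142 and 113 in input. Which probe set reports the translated transcript was not tested.

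The opposite case was picked out after the values were seen. In 4 of 19 members (21.1%) whose brightest probe set was positive and that had another above background, a dimmer one was called lower. Over all genes this was so for 134 of 2395 (5.59%), with the number of probe sets per gene not matched. For Slc25a12 the dimmer probe set was 5.08 and 8.53 units in TRAP and 124 and 167 in input (adjusted p = 0.0143), at least 2.87-fold lower. For Slc25a51 it was 8.89 on both TRAP arrays and 138 and 70.9 in input (adjusted p = 0.0273), at least 1.98-fold lower. For Timm9 it was 6.65 and 4.59 in TRAP and 130 and 55.5 in input (adjusted p = 0.0394), at least 1.70-fold lower, and for Slc25a27 it was 14.1 and 12.2 in TRAP and 113 and 73.7 in input (adjusted p = 0.0198), at least 1.82-fold lower. In all 4 the TRAP arrays were under 50 units and the input arrays above it. No member had probe sets called in both directions, against 56 of 3711 genes (1.51%). The control probe sets for the 3′ and 5′ ends of Gapdh differed by 4.96 and 3.52 on the log2 scale in TRAP and by 6.81 and 6.39 in input. Those of Actb differed by 6.45 and 4.82 in TRAP and by 7.30 and 7.08 in input. The gap was wider in input for both controls. Its part in the probe set differences, and in the other differences between the fractions given here, was not tested.

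**Figure D4:**
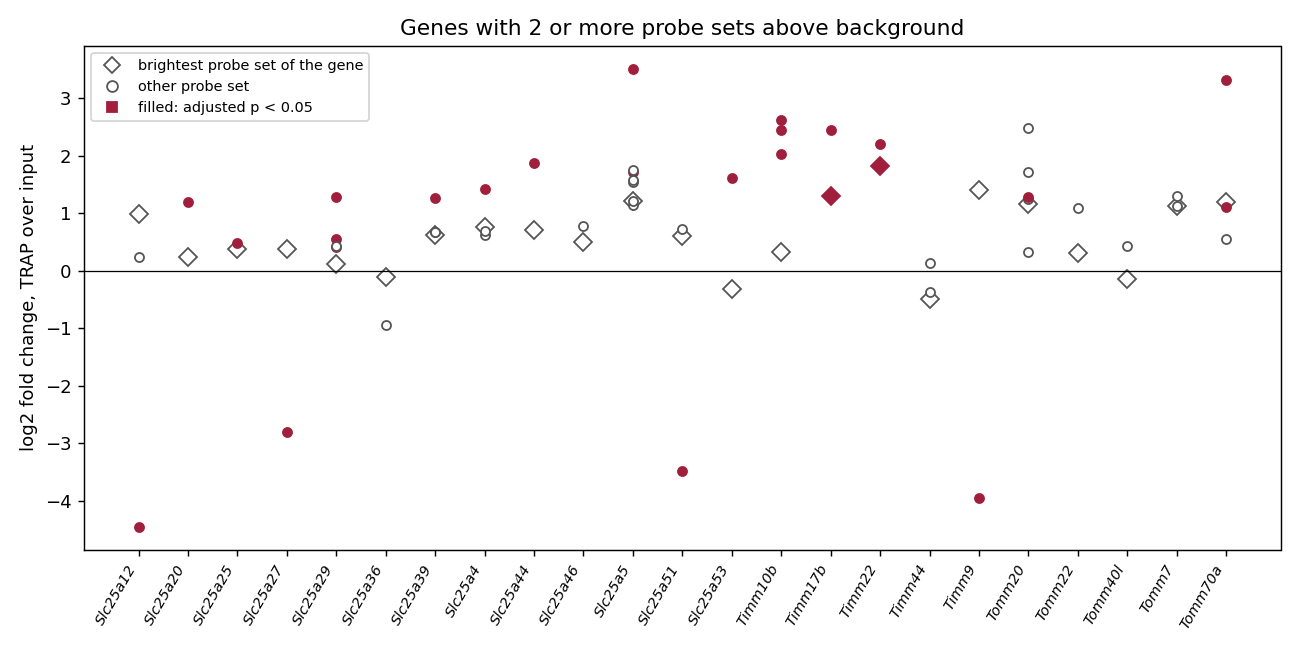
Log2 difference of TRAP over input for every probe set above background of the 23 members that have at least 2. Diamonds are the brightest probe set of a gene, circles the others and filled symbols those with an adjusted p under 0.05, and the 4 filled circles under -2 belong to Slc25a12, Slc25a27, Slc25a51 and Timm9.

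Related genes with the same kind of role were compared within each array. This takes out a constant scaling of the array but not one that varies with intensity. Of 11 pairs, 10 had both genes above background, and in 7 of them the log2 ratio of the pair did not overlap between the fractions. The share over gene pairs in general was not computed, and of 10014 single genes above background only 2413 overlapped. An exact permutation test with 2 arrays against 2 cannot go below p = 0.333, the value these 7 pairs have (0.476 after adjustment over the 10 pairs), so the shifts are given by size only. The ratio of Slc25a22 to Slc25a18, both glutamate carriers, was 1.79 and 3.94 in TRAP and 0.11 and -0.47 in input on the log2 scale, a shift of 3.04 towards Slc25a22 in TRAP. The ratio of Tomm40 to Tomm40l was -1.21 and -1.04 in TRAP and -3.55 and -3.85 in input, a shift of 2.58 towards Tomm40. The ratio of Slc25a33 to Slc25a36, both pyrimidine nucleotide carriers, was -1.82 and -2.38 in TRAP and -3.48 and -5.35 in input, a shift of 2.32 towards Slc25a33.

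Smaller shifts were seen in the other pairs. For Timm17a over Timm17b the shift was 0.96, with ratios of -0.54 and 0.29 in TRAP and -0.95 and -1.21 in input. For Slc25a23 over Slc25a25 it was -1.01, for Slc25a37 over Slc25a28 it was -0.50 and for Slc25a4 over Slc25a5 it was -0.44. The last of these had ratios of 1.83 and 1.64 in TRAP and 2.19 and 2.17 in input. On these brightest probe sets the balance lay slightly more towards Slc25a5 in TRAP. The direction depends on the probe set. A dimmer one of Slc25a4 had a log2 difference of 1.42, above the 1.21 of the Slc25a5 probe set used. Its other dimmer ones gave 0.62 and 0.68. The fractions overlapped for Slc25a39 over Slc25a40, Slc25a27 over Slc25a14 and Timm8a1 over Timm8b, with exact permutation p = 1.

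**Figure D5:**
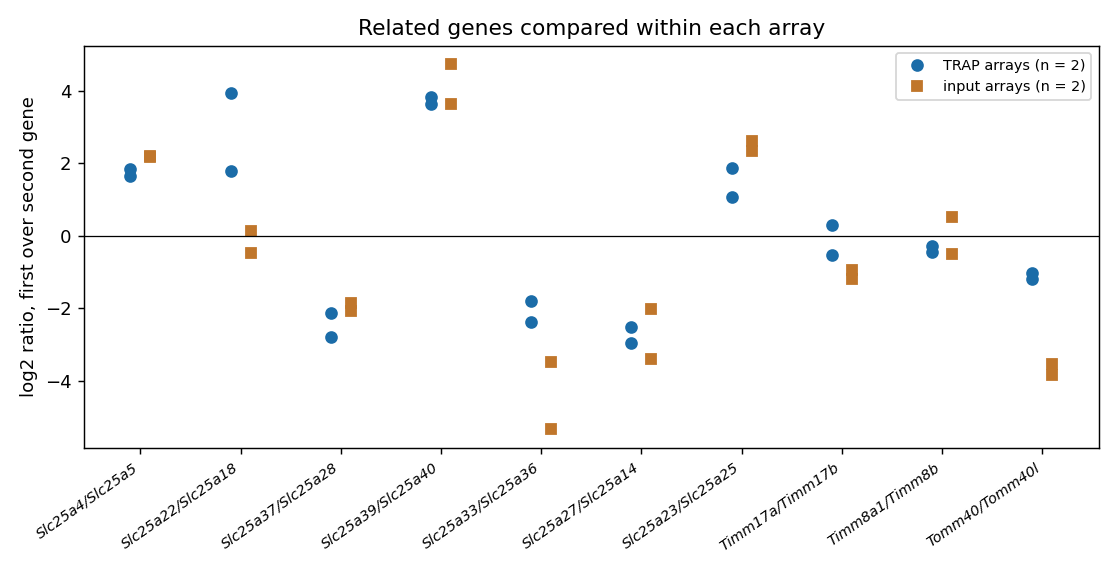
Log2 ratio of the 2 genes of each of the 10 pairs on the 2 TRAP and 2 input arrays. The arrays of the fractions lie apart in 7 pairs, with the widest gap on average for Slc25a22 over Slc25a18 and a shift close to 0 for Slc25a27 over Slc25a14.

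Genes of import and of metabolite and ion passage with other names were set beside the members. Of 34 above background, 11 (32.4%) were higher in TRAP, against 18.7% of all genes, and 0 lower, against 6.87%. At an unadjusted p under 0.05 from limma there were 20 and 0, against 2788 and 1083 of all 10014 genes above background. In import these were 7 of 23 (30.4%), with a median log2 difference of 1.24 over the 23. They included Hspd1 (1.26) and Hspe1 (2.05), the chaperonin of the matrix, Gfer (1.63), the oxidase of the intermembrane space disulfide relay, Dnajc15 (1.75), a cochaperone of the import motor, and Romo1 (0.62), a small inner membrane protein. Chchd4, the receptor oxidised by Gfer, had a larger difference that did not pass (2.39, adjusted p = 0.0623), and so did Agk, a subunit of TIM22 (2.79, adjusted p = 0.0557). Hspa9, the motor chaperone itself, gave 0.21, and Samm50, which inserts outer membrane barrels, gave 0.34.

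Among the genes of metabolite and ion passage 4 of 11 (36.4%) were higher, with a median of 1.0. These were Mtch1 (1.91) and Mtch2 (1.54), outer membrane relatives of the carriers, Sfxn3 (1.0), a sideroflexin, and Micu3 (0.50), a regulator of the calcium uniporter that is most abundant in neurons. Of the outer membrane channels, Vdac2 gave 1.80 (adjusted p = 0.0502) and Vdac1 gave 0.13.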

How the data were processed

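The authors hybridised RNA amplified in a two-cycle protocol from up to 10 ng to Affymetrix 430 2.0 arrays and normalized with GCRMA, for which no version is given in the sources used here. What they deposited is a log2 value for each probe set on each array, and units are 2 to the power of it. Arrays give no read depth, and their number, 2 in each fraction, limits the precision. Array medians were 7.28 and 7.13 units in TRAP and 10.2 and 10.1 in input. The study describes the TRAP pools as independent. Input was collected alongside each TRAP sample, so TRAP 2 and input 2 may come from 1 pool, while the fit treats the 4 arrays as independent and its p-values measure the spread between these arrays only.

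Of 45101 probe sets, 64 controls were left out and 45037 tested with limma 3.58.1 in R 4.3.3 (lmFit and eBayes, 1 coefficient for the fraction, all 4 arrays, 2-sided), adjusted by Benjamini-Hochberg over all of them with 0.05 as threshold. Prior degrees of freedom were 0.317 and residual ones 2. Because 15551 probe sets repeat 1 value within each fraction, which leaves limma's p without meaning there, calls were counted only where both arrays of a fraction reached 50 units (17073 probe sets). Folds against a fraction under 50 units use 50 as the floor. Gene symbols are those of the platform annotation, and all 67 members matched RefSeq by gene ID with 0 symbols changed. The fit was tested on simulated data.

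Members and lists were chosen with earlier results of these data known. Genes named with all array values are those called and, in each of 12 roles, up to 4 in all, called ones first and then the brightest, which made 39 genes. Members of related pairs and a few others are named beside them. Alternatives were quantile normalization, centring on bright probe sets, a fit restricted to probe sets above background, raising values to 50, an intensity trend in the prior, a background of 100 units, averaging a gene's probe sets, leaving out _s_at and _x_at probe sets, a threshold of 0.01, and leaving out each array.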

Additional observations from a re-analysis of the deposited data

How the results depend on the processing

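The count of 12 members higher in TRAP, beside 18.7% of all genes, became 7 (12.2% of all genes) after quantile normalization. It was 0 (4.44%) with values under 50 units raised to 50. There limma's unadjusted p was under 0.05 for 23 members higher and 1 lower, with no count over all genes. The count was 19 (25.6%) with an intensity trend in the prior and 1 (Timm22, 5.25%) at an adjusted p under 0.01. It was 17 (21%) after centring on bright probe sets and 16 (22.7%) in a fit restricted to probe sets above background. With a gene's probe sets averaged it was 16 of 46 members above background (21.9% of all genes). It was 14 of 53 (19.6%) without _s_at and _x_at probe sets and 12 of 52 (18.7%) with a background of 100 units. In the other settings 54 members were above background. Leaving out an array gave 4 to 13 (7.38% to 15.3%). The share over all genes moved the same way as the member count in these settings, except without input 1 (13 members, 15.3%). The count of 0 lower became 1 after quantile normalization (Slc25a36), 3 after centring (Slc25a34, Slc25a36 and Slc25a37), and 1 in the restricted fit and with the intensity trend (Slc25a34 in both). Leaving out an array gave 0 to 1. The median log2 difference of 0.76 became 0.30 after quantile normalization, 0.35 after centring and 1.07 without _s_at and _x_at probe sets, and 0.64 to 0.97 without an array. The 11 other pathway genes became 5 with values raised to 50, 19 with the intensity trend and 5 at an adjusted p under 0.01, and 7 to 8 without an array. Their count of 0 lower became 2 after quantile normalization, 1 after centring, and 0 to 1 without an array (1 without TRAP 2 and 1 without TRAP 4). The 7 related pairs whose fractions did not overlap became 6 after quantile normalization and stayed 7 after centring. The cause of these changes was not tested, except that raising to 50 leaves 26819 probe sets with the same value on all 4 arrays, which changes the fit of the others.

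None of the 12 genes called higher changed sign under these alternatives. Members that did were not called in the analysis as reported. After quantile normalization these were Slc25a10 (-0.078), Slc25a14 (-0.053), Slc25a20 (-0.24), Slc25a29 (-0.24), Slc25a46 (-0.018), Timm10b (-0.052), Tomm22 (-0.18) and Tomm34 (-0.18). After centring they were Slc25a10 (-0.19), Slc25a20 (-0.17), Slc25a25 (-0.025), Slc25a27 (-0.027), Slc25a29 (-0.29), Slc25a42 (-0.33), Timm10b (-0.080), Tomm22 (-0.097) and Tomm34 (-0.063). With probe sets averaged they were Slc25a12 (-1.08), Slc25a27 (-0.63), Slc25a51 (-0.72), Slc25a53 (0.65), Timm9 (-1.27) and Tomm40l (0.15). Over the fits without 1 array, the differences that changed sign ranged from -0.22 to 0.69 for Slc25a20, -0.26 to 0.035 for Slc25a36, -0.26 to 0.42 for Slc25a42, -0.79 to 0.16 for Slc25a53, -0.33 to 0.25 for Slc25a28, -1.24 to 0.36 for Timm21, -0.28 to 0.71 for Slc25a10, -0.38 to 1.15 for Slc25a27 and -0.51 to 0.23 for Tomm40l. No paired analysis was possible because the fractions share only replicate number 2. With an array left out, the lone array of a fraction is assumed to vary like the other fraction's pair. Genes under 50 units on a fraction have only a bound there.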
